A study of Mus musculus with 6 samples.

Results

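The genes described here are 9 CXC chemokine ligands, Cxcl1, Cxcl2, Cxcl3, Cxcl5, Cxcl9, Cxcl10, Cxcl11, Cxcl14 and Cxcl16, out of 22180 genes with a row of their own in the value table. Each was found by its symbol in the probe annotation, and each had exactly 1 row, with no row shared with another gene. The samples were BV-2 cells, a mouse microglial line transformed with the viral oncogenes raf and myc. The LPS group was 3 arrays of cells given lipopolysaccharide, a bacterial cell wall component, at 1 µg/mL for 24 h, and the control group was 3 arrays of resting cells. Both groups were kept in the same medium with reduced serum, the time at which controls were collected is not stated, and a single transformed line limits how far the values speak for microglia. Whether the replicates were separate cultures is not stated in the labels, so the spread behind each p-value may be only technical. Of 12 microglia and macrophage markers 11 had a row, and 10 of these lay above the background guide explained below. The microglial marker Tmem119 did not, with a mean of 2.68 in either group. Among those above it, P2ry12 (4.04 in the controls and 3.27 after LPS), Cx3cr1 (3.75 and 3.64) and Aif1 (3.91 and 4.03) were the nearest to the guide. The median of the list was 8.83 in the controls and 8.65 after LPS. None of the 4 astrocyte, 3 T cell or 4 neutrophil markers, nor of the 3 oligodendrocyte markers with a row, lay above the guide. Above it were 1 of 4 neuronal (Rbfox3, at 3.42 and 3.51 in the groups), 1 of 4 fibroblast (Col1a2, at 3.06 in the controls and 3.15 after LPS) and 1 of 4 endothelial markers, the receptor Kdr, at 8.99 in the controls and 8.67 after LPS.

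CXC chemokines are small secreted proteins that guide white blood cells and are named for a pair of cysteines set apart by another residue. Cxcl1, Cxcl2, Cxcl3 and Cxcl5 carry the residues Glu, Leu and Arg before the first cysteine and draw neutrophils through Cxcr2, while Cxcl9, Cxcl10 and Cxcl11 lack them and draw T cells and NK cells through Cxcr3. In macrophages and microglia, LPS is known to switch on such genes through Toll-like receptor 4, by NF-kappaB for the neutrophil attractants and by interferon signalling together with NF-kappaB for the Cxcr3 ligands. Cxcl14 is an epithelial and brain chemokine that is often expressed without stimulation. Cxcl16 is made as a membrane protein that can be shed, and its receptor is Cxcr6.

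Most of these ligands lie in 2 groups on chromosome 5. In the RefSeq order the neutrophil attractants run Cxcl5, Cxcl3, Cxcl1, Cxcl2, with Ppbp and Pf4 between the first pair and Cxcl15 between Cxcl3 and Cxcl1. Cxcl9, Cxcl10 and Cxcl11 form the other group, and RefSeq lists Cxcl11 as a transcribed pseudogene in this assembly, which is that of C57BL/6J. Promoters were available from RefSeq (GRCm38.p6) for 6 of the 9 genes. The stretches below are the bases before the start of each gene, printed because Cxcl2 and Cxcl10 responded to LPS while their neighbours Cxcl1, Cxcl3 and Cxcl9 were not called. They lie at chr5:90891125-90891244 on the plus strand for Cxcl1, chr5:90903779-90903898 (plus) for Cxcl2, chr5:90785981-90786100 (plus) for Cxcl3, chr5:92328080-92328329 on the minus strand for Cxcl9 and chr5:92348890-92349139 (minus) for Cxcl10. Each is written 5′ to 3′ on the gene's strand and ends at the base before the start, with 120 bases for the first 3 genes and 250 for the others. Capitals mark matches, on either strand, to an NF-kappaB motif GGNNTTTCC or to an interferon-stimulated response element (ISRE) motif GAAANNGAA.
Cxcl1: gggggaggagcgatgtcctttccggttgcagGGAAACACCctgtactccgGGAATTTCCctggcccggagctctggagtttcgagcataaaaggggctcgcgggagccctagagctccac
Cxcl2: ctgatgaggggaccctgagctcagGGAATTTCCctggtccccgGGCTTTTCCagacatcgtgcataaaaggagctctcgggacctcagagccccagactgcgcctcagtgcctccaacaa
Cxcl3: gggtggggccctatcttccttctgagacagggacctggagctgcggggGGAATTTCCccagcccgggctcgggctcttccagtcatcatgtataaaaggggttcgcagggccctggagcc
Cxcl9: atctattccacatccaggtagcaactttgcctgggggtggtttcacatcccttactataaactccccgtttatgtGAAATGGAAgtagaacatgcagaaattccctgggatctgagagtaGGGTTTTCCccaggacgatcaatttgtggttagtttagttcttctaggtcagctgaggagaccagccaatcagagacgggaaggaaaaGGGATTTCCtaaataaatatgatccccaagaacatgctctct
Cxcl10: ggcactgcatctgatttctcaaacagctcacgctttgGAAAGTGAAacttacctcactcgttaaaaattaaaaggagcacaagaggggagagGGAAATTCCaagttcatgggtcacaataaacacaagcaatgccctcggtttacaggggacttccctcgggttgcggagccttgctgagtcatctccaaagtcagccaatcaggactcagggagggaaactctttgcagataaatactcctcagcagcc

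The match GGAATTTCC stood before Cxcl1, Cxcl2 and Cxcl3, beginning 70, 96 and 72 bases before the start. Cxcl2 had a second match, GGCTTTTCC, beginning 77 bases before the start, and Cxcl1 had a second one on the opposite strand, beginning at 89. Cxcl10 held an NF-kappaB match on the opposite strand, beginning at 158, and an ISRE match, GAAAGTGAA, beginning at 213. Cxcl9 held NF-kappaB matches beginning at 130 and 42 and an ISRE match, GAAATGGAA, beginning at 175. Over the 32851 promoters of 300 bases in the table, the NF-kappaB letters were found in 5.82% and the ISRE letters in 8.56%. All 5 genes printed above thus held the NF-kappaB letters, those that rose and those that were not called alike. The promoter of Cxcl14 had an ISRE match and a match to the GAS motif TTCNNNGAA, found in 8.30% of promoters, and no NF-kappaB match in its window. These matches describe letters and not sites in use.

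Among the neutrophil attractants, LPS raised Cxcl2. Expression is given on the log2 scale of the deposited table, per transcript cluster, the array's group of probes for 1 transcription unit. Cxcl2 (transcript cluster 17438995) read 2.74, 2.33 and 3.17 in control replicates 1 to 3 and 7.56, 7.78 and 7.78 in LPS replicates 1 to 3. The LPS arrays lay close together, and every one was far above the controls. The group means were 2.75 ± 0.42 and 7.71 ± 0.13 (SD, n = 3). Cxcl2 thus rose by 4.96 log2 units, or 31.2-fold (moderated SE of the log2 change 0.23, limma adjusted p = 0.0012). As for any RNA from whole cultures, more cells that use the gene and more RNA per cell cannot be told apart. Of all 22180 genes it had the 10th largest log2 fold change.

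Background was judged from 1443 rows of chemosensory receptors (olfactory, vomeronasal and taste), whose means had a 95th percentile of 3.08, called the background guide here. The control mean of Cxcl2 lay under this level, so its fold rests on a control signal within the range of those rows.

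The other neutrophil attractants showed no such rise. Cxcl1 (transcript cluster 17438987) read 2.71, 2.58 and 2.86 in the controls and 3.06, 2.13 and 2.55 after LPS. The groups overlapped, and the log2 fold change was -0.14 (95% interval -0.72 to 0.45, limma adjusted p = 1.00). Cxcl3 (transcript cluster 17438975) read 1.84, 1.71 and 1.73 in the controls and 1.85, 1.53 and 2.59 after LPS, so that LPS replicate 3 alone stood higher. Its log2 fold change was 0.23 (95% interval -0.42 to 0.88, limma adjusted p = 1.00). Cxcl5 (transcript cluster 17438955) lay between 2.16 and 2.43 on all 6 arrays, with a log2 fold change of 0.04 (95% interval -0.31 to 0.39). All arrays of these 3 genes were under the background guide, and a signal in this range gives no measure of how much transcript is present. How far probes for these related genes respond to each other's transcripts was not tested.

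Among the Cxcr3 ligands, LPS raised Cxcl10. Cxcl10 (transcript cluster 17449718) read 2.97, 3.40 and 3.05 in the controls and 6.87, 7.28 and 7.67 after LPS. The groups were far apart, and the LPS arrays were spread more widely than for Cxcl2. The means were 3.14 ± 0.23 and 7.28 ± 0.40 (SD, n = 3). Cxcl10 thus rose by 4.14 log2 units, or 17.6-fold (SE of the log2 change 0.24, limma adjusted p = 0.0034), the 17th largest change of 22180. The control mean was just above the background guide and 2 of the 3 control arrays were under it.

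Cxcl9 and Cxcl11, grouped with Cxcl10 as Cxcr3 ligands, stayed under the guide on all 6 arrays. As given above, RefSeq lists Cxcl11 as a transcribed pseudogene. Cxcl9 (transcript cluster 17449710) read 2.27, 2.10 and 2.03 in the controls and 2.37, 2.35 and 2.18 after LPS. Its log2 fold change was 0.17 (95% interval -0.17 to 0.50, limma adjusted p = 0.99), with overlapping groups. Cxcl11 (transcript cluster 17449725) read 2.39, 2.17 and 2.33 in the controls and 2.14, 2.05 and 3.03 after LPS, again with LPS replicate 3 alone higher. Its log2 fold change was 0.12 (95% interval -0.54 to 0.77, limma adjusted p = 1.00).

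**Figure D1:**
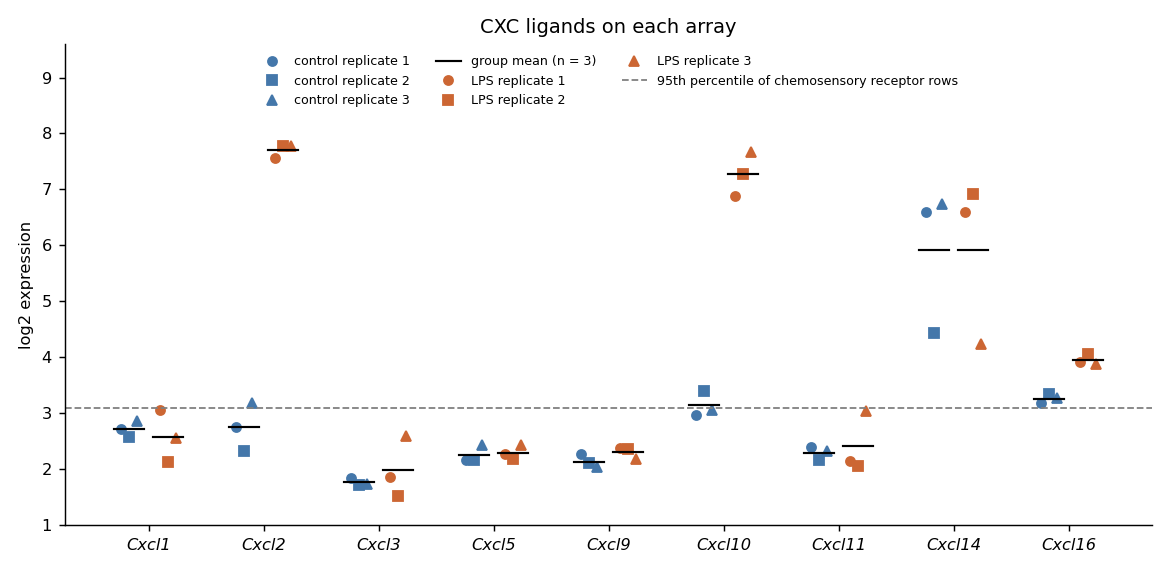
Log2 expression of the 9 CXC ligands on each of 6 arrays, controls in blue and LPS in orange, with symbols for replicates, bars for group means (n = 3) and a dashed line at 3.08, the 95th percentile of chemosensory receptor rows. Cxcl2 and Cxcl10 reach 6.87 to 7.78 on all LPS arrays, while Cxcl1, Cxcl3, Cxcl5, Cxcl9 and Cxcl11 stay under the line.

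Cxcl16, the membrane-bound ligand, was higher on every LPS array by a small amount and was not called. It (transcript cluster 17265268) read 3.18, 3.33 and 3.27 in the controls and 3.91, 4.05 and 3.88 after LPS. Replicates were tight and the groups did not overlap. The means were 3.26 ± 0.08 and 3.95 ± 0.09 (SD, n = 3). The log2 difference of 0.69 (SE 0.13, 95% interval 0.37 to 1.00) is 1.61-fold, with an unadjusted p = 0.0014 and an adjusted p = 0.22 in limma. Over the alternative settings the log2 fold change was between 0.63 and 0.76 and the limma adjusted p between 0.098 and 0.76. All its values were above the background guide, but the controls by little.

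Cxcl14 was the ligand with a clear signal in resting cells, and it was far lower on 1 array of each group than on the others. Cxcl14 (transcript cluster 17293006) read 6.59, 4.44 and 6.74 in the controls and 6.60, 6.92 and 4.24 after LPS. Control replicate 2 and LPS replicate 3 were low, and the other 4 arrays were close to each other. The log2 fold change was -0.01 (SE 0.88, 95% interval -2.09 to 2.08, limma adjusted p = 1.00), an interval too wide to tell a change of either sign. With these 2 arrays left out the control mean was 6.67, the LPS mean 6.76 and the log2 fold change 0.09 (limma adjusted p = 0.92). It was -0.75 without control replicate 2 and 0.83 without LPS replicate 3. The 2 arrays stood apart in these same values, and any fit without both has 2 arrays in each group.

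Both arrays also stood apart over the whole table. Control replicate 2 had Pearson's r of 0.960 and 0.959 with the other controls, which had 0.982 with each other, across rows that are not independent. Its r with LPS replicate 3 was higher, at 0.968. LPS replicate 3 had 0.966 and 0.973 with the other LPS arrays, which had 0.979 with each other. Over rows above the background guide, control replicate 2 had a median of -0.26 relative to the mean of the other controls, and LPS replicate 3 had 0.14 relative to its own group. Cxcl14 itself deviated by -2.23 and -2.52. A median over rows, where deviations of either sign cancel, is not the same measure as the deviation of 1 gene. Only 59 of 41345 rows were as low or lower in control replicate 2, and 16 in LPS replicate 3. Values at least 2 log2 units lower in both arrays were found for 8 rows, 4 of them with 1 symbol. These were Cxcl14, the stress-induced mTORC1 inhibitor Ddit4, the immediate early nuclear receptor Nr4a1 and the glucose transporter Slc2a3. The 3 genes most like Cxcl14 over the 6 arrays, chosen after its values were seen, were Ttc39b, Ddit4 and the immediate early factor Fos. Likeness was the root mean square difference between log2 profiles, each taken relative to its own control mean, which was 0.23 for Ttc39b and 0.27 for either other gene. What sets these arrays apart was not tested.

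**Figure D2:**
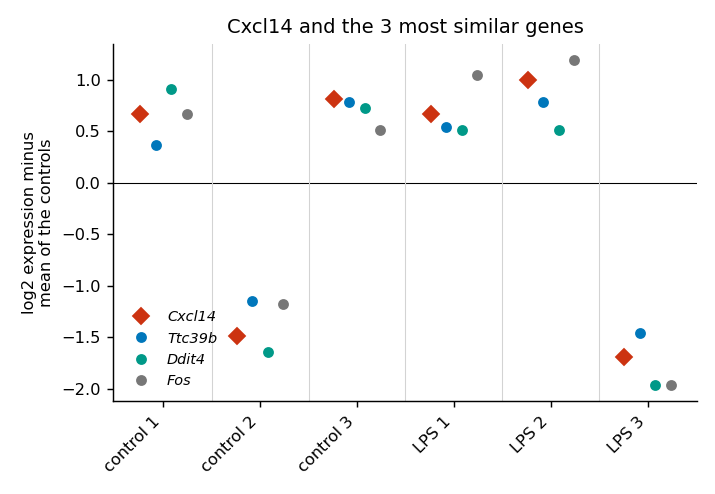
Log2 expression of Cxcl14 and the 3 genes of most similar profile on each array, relative to each gene's mean over the controls. All 4 genes are low in control replicate 2 and LPS replicate 3 and lie close together on the other arrays, whichever group these belong to.

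In all, 2 of the 9 ligands rose, 0 fell and 7 were not called at an adjusted p under 0.05 in limma, where 0.193% of the 41345 rows were called higher and 0% lower. Cxcl2, Cxcl10 and Cxcl16 had all LPS arrays above all control arrays, as had 7.74% of rows. The median log2 fold change of the 9 was 0.17, beside 0.03 over all rows. The 2 calls were kept with any single array left out, with log2 fold changes between 4.75 and 5.17 for Cxcl2 and between 3.94 and 4.34 for Cxcl10. Once control replicate 2 and LPS replicate 3 were dropped together they were 4.71 and 4.07. The limma adjusted p of Cxcl10 was as high as 0.044 with a single array left out. With replicate number fitted as a block it was 0.059, and Cxcl10 was then not called.

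**Figure D3:**
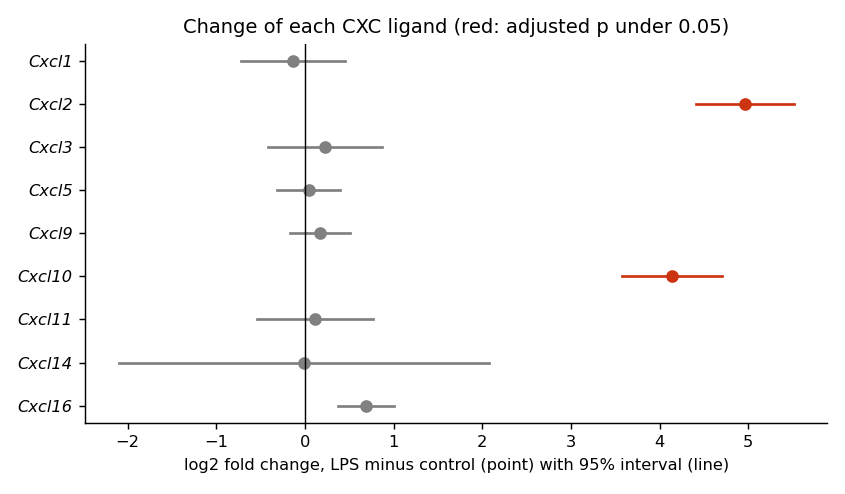
Log2 fold change of each ligand (LPS minus control, point) with its 95% interval from the moderated SE (line), in red where the limma adjusted p was under 0.05. Cxcl2 at 4.96 and Cxcl10 at 4.14 stand alone, Cxcl16 lies at 0.69, and the interval of Cxcl14 runs from -2.09 to 2.08.

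The genes most like Cxcl2 over the 6 arrays were cytokine and antiviral genes. The nearest of 22179 was Il6, the fever and acute phase cytokine, with a root mean square difference of 0.10. It read 1.94, 1.61 and 2.19 in the controls and 6.69, 7.11 and 6.97 after LPS. All its control values and the control mean of Cxcl2 lay under the background guide. Over the controls the match is thus between signals in the background range. Next were the antiviral enzyme Rsad2 (0.42) and the cytokine Il1b (0.46). Cxcl10 was nearest to the lymphocyte and macrophage receptor Slamf7 (0.21), the interferon-inducible GTPase Gbp7 (0.33) and the scavenger receptor Marco (0.43). Slamf7 and Gbp7 shared with Cxcl10 the highest LPS value in replicate 3, at 8.30 and 8.07, and Marco had its lowest LPS value there, at 7.09. This was not particular to genes near Cxcl10. Rsad2, near Cxcl2, was also highest in LPS replicate 3, at 10.34, while Il6 and Il1b were highest in LPS replicate 2, at 7.11 and 9.34. Relative to the other LPS arrays, LPS replicate 3 was higher by 0.59 for Cxcl10 and by 0.11 for Cxcl2. A like profile on 6 arrays says nothing of shared control.

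**Figure D4:**
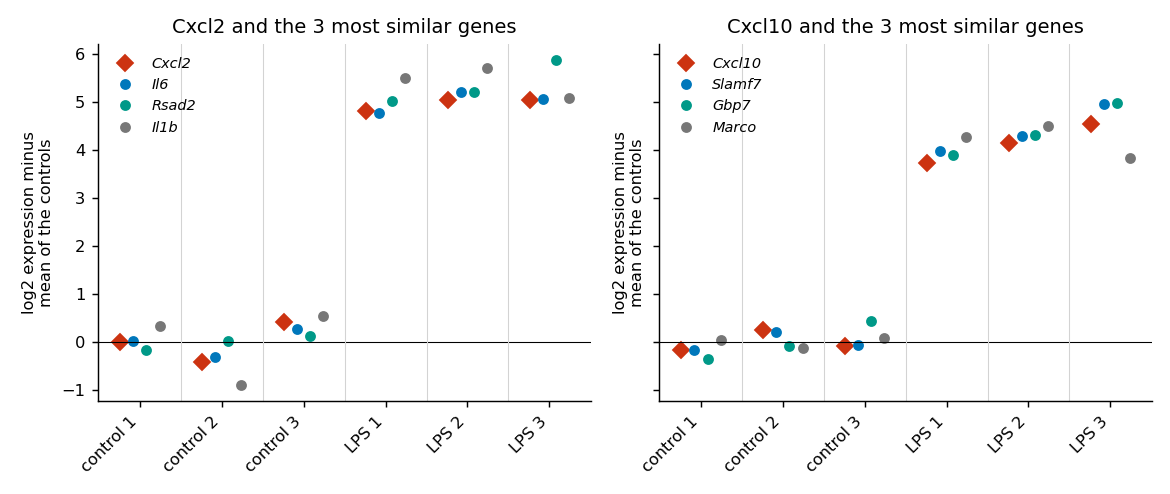
Log2 expression of Cxcl2 (left) and Cxcl10 (right), each with its 3 genes of most similar profile, on each array and relative to each gene's mean over the controls. Il6 lies almost on Cxcl2 on every array, with controls of both genes in the background range. Cxcl10, Slamf7 and Gbp7 are highest in LPS replicate 3, as is Rsad2 in the left panel.

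Genes around the ligands were read from 6 lists, beside the median of 0.03 over all rows. Of the 41345 rows 19060 lay above the background guide. The lists differed in this, with 13 of 15 interferon pathway genes but 2 of 6 other CXC ligands above it. The list medians and that over all rows are thus not taken at like brightness. None of 6 other CXC ligands was called. Pf4, the platelet factor that maps next to Cxcl3, was the brightest of them and read 8.19, 6.79 and 7.99 in the controls and 6.84, 7.31 and 7.88 after LPS. Its log2 fold change was -0.31 (SE 0.43), and that of the mucosal chemokine Cxcl17 was -0.12 (SE 0.15). The list had a median of -0.24, and 4 of its 6 genes had a mean under the background guide.

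None of 8 CXC receptors, atypical ones included, was called, and the median was -0.09. Cxcr4, the receptor of Cxcl12, had the largest difference on the list. It read 6.83, 6.11 and 6.85 in the controls and 3.78, 4.53 and 5.99 after LPS, lower on every LPS array but with LPS replicate 3 close to the controls. Its log2 difference was -1.83 (SE 0.55) with a limma adjusted p = 0.52. Once control replicate 2 and LPS replicate 3 were dropped together it was -2.68 (SE 0.27, limma adjusted p = 0.030), and no other receptor of the list was called in that setting. That fit has 2 arrays in each group and lacks the LPS array nearest the controls, so the smaller SE is no separate evidence of a fall. The scavenging receptor Ackr3 had -0.34 (SE 0.24). The receptors of the 2 ligands that rose had means near or under the background guide, with Cxcr2 at 3.10 in the controls and 2.53 after LPS and Cxcr3 at 3.25 and 3.16. Both were singled out for that role after their values were seen.

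Of 9 genes that cleave or bind CXC ligands 0 were called, with a median of 0.22. Adam17, a sheddase of membrane proteins, had a log2 fold change of 0.35 (SE 0.19) and the heparan sulfate carrier Sdc4 0.52 (SE 0.17). The gelatinase Mmp9, named after its values were seen, read 4.91, 3.94 and 5.04 in the controls and 6.41, 6.77 and 6.46 after LPS. Its log2 difference of 1.92 (SE 0.30, limma adjusted p = 0.13) was 1.62 with both arrays left out, where it was called (adjusted p = 0.048). It was also called with array weights and over 2 smaller sets of rows, those with 1 symbol and a single row for each gene. None of the other alternatives called it, among them quantile normalization, dim rows left out, the replicate block and any single array left out.

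Of 16 interferon pathway genes 15 had a row and 0 were called, with a median of 0.59 and 12 log2 fold changes above 0. A value above 0 was common. Of all 22180 genes only 41.8% had a log2 fold change below the -0.01 of Cxcl14, and the median over these genes was 0.03. The interferon receptor chain Ifngr2 had 0.59 (SE 0.26) and the kinase Jak1 0.42 (SE 0.28). Ifnb1, the gene of interferon beta, was singled out as an LPS-induced interferon after its values were seen. It lay between 1.81 and 2.02 on all 6 arrays, under the background guide, at the 24 h time measured. Irf7, a factor of the interferon response and likewise singled out, read 5.21, 4.39 and 4.86 in the controls and 7.59, 7.44 and 9.04 after LPS. LPS replicate 3 was the highest, as it was for Cxcl10. Irf7 had 3.20 log2 units between the groups (SE 0.45, limma adjusted p = 0.088), which was 2.70 without LPS replicate 3 and then passed (adjusted p = 0.044). With both arrays left out 2 genes of the list were called higher, Irf7 and the kinase Jak2. With fewer rows tested 3 genes (Irf1, Irf7 and Jak2) were called higher over a single row for each gene, 2 (Irf1 and Irf7) over rows with 1 symbol, and 1 (Irf7) without dim rows. Array weights gave 1, Irf1, and no other alternative called a gene of this list.

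Of 15 genes of the TLR4 and NF-kappaB route 13 had a row, 3 rose and 10 were not called, with a median of 0.61. Nfkbia, the inhibitor that NF-kappaB induces, rose by 2.57 (SE 0.17, limma adjusted p = 0.0054), from 5.99 ± 0.21 to 8.55 ± 0.19 (SD, n = 3). The ubiquitin editor Tnfaip3 rose by 2.39 (SE 0.28, adjusted p = 0.046) and the LPS co-receptor Cd14 by 1.41 (SE 0.17, adjusted p = 0.046). Nfkbia alone was called without control replicate 1, control replicate 3, LPS replicate 1 or LPS replicate 2, and 2 genes, Nfkbia and Nfkb2, without LPS replicate 3. With both arrays left out 5 were called higher. Quantile normalization, median centring, and robust estimation with a trend each called 2, Nfkbia and Tnfaip3. Of 9 genes that set mRNA stability 0 were called, with a median of 0.26. The mRNA-binding protein gene Hnrnpd had a log2 fold change of 0.14 (SE 0.18) and the decay factor Zfp36 0.62 (SE 0.62), where controls 1 and 3 read 8.18 and 8.22 and control replicate 2 only 5.98.

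**Figure D5:**
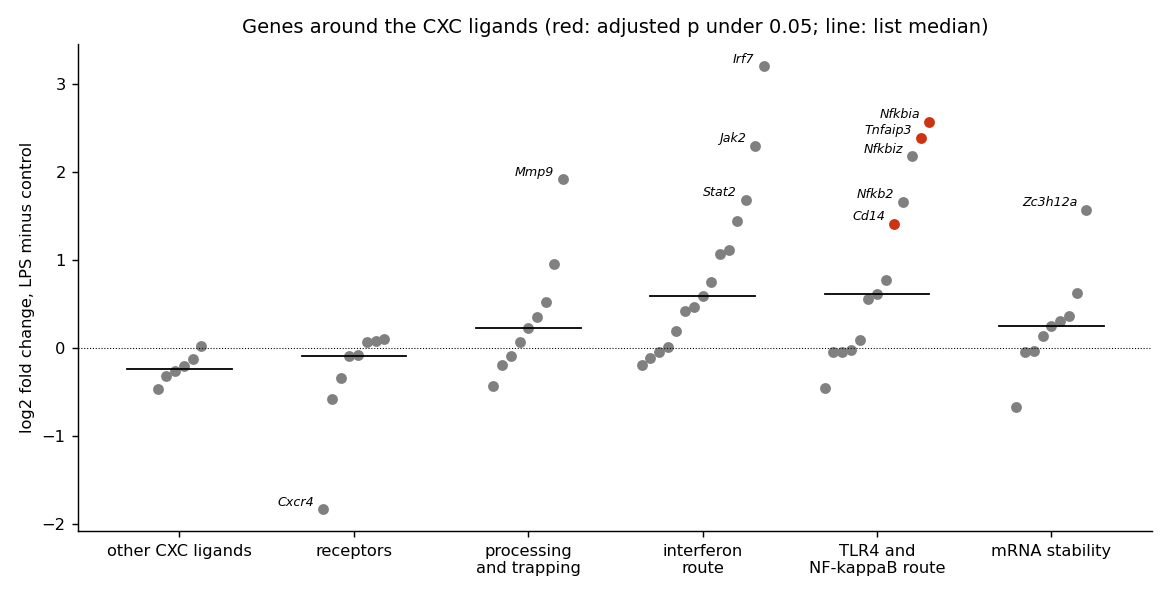
Log2 fold change (LPS minus control) of each gene on the 6 lists around the CXC ligands, 1 point per gene, with a line at each list's median and names for genes past 1.5 in size or called. Nfkbia, Tnfaip3 and Cd14 are the called genes (red), Irf7 at 3.20 is the highest value and Cxcr4 at -1.83 the lowest.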

How the data were processed

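The authors deposited 1 log2 expression value per transcript cluster and array, for which the submitters' processing notes name Affymetrix Expression Console. Its version, background correction, normalization and summarization are not given in the sources used here, so folds from low signals may be biased. No source states the log2 scale, which was taken from the range of 0.84 to 11.97, with array medians between 2.88 and 2.97. Names came from a table of platform annotation, which gave 1 symbol for 23521 of 41345 rows. No coordinates are given for array rows, since no genome build was named. Precision is limited by having 3 arrays in each group.

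LPS was compared with control by lmFit and eBayes of limma 3.58.1 under R 4.3.3, without a trend, on all rows with no further normalization or filter. P-values were adjusted by Benjamini-Hochberg over 41345 rows, and adjusted p under 0.05 was called. The fit was also run on simulated arrays with known changes and independent noise. That noise models neither arrays that stand apart nor replicates that are only technical, so the run says nothing of their effect on the p-values. Members and lists were chosen with earlier results of these data known, and pathway genes by a rule: up to 4 called genes of a list or, with none called, the 2 of highest mean. For each called member the 3 genes of smallest root mean square difference were named. The protein comparison was not run, since no protein sequences were used here.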

Additional observations from a re-analysis of the deposited data

How the results depend on the processing

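The call of Cxcl2 held under each alternative limma fit, with a log2 fold change between 4.71 and 5.17. Over all rows these were quantile normalization, median centring, robust estimation with an intensity trend, array weights, arrays left out and the replicate block. Over fewer rows they were dim rows left out, rows with 1 symbol and a single row for each gene. Their p-values were adjusted over those rows alone. The call of Cxcl10 held under all these fits except the replicate block. Its limma adjusted p ran from 0.00038, over a single row for each gene, to 0.059. Labels number the replicates alike and do not say whether the arrays are paired. Deviations of same-numbered arrays had correlations of 0.07, -0.26 and -0.22, and those of control replicate 2 and LPS replicate 3 had 0.27. With 3 arrays in each group and these 2 standing apart, such correlations cannot decide whether the arrays are paired. With the replicate block 7 rows were called higher, and 1 ligand, Cxcl2, while Cxcl10 had 4.14 (adjusted p = 0.059). The exact permutation test gave p = 0.1 for Cxcl2 (4.96) and Cxcl10 (4.14), the smallest it allows. Rows called higher numbered 132 with array weights, 152 without the pair of control replicate 2 and LPS replicate 3 (67 lower), and 15 to 76 with 1 array left out (0 to 14 lower), the main numbers being 80 and 0. Cxcl1, Cxcl3, Cxcl5, Cxcl11 and Cxcl14 changed sign under some of these alternatives. Without that pair Cxcl3 had -0.098, Cxcl5 -0.068, Cxcl11 -0.26 and Cxcl14 0.091, and array weights gave -0.0048 for Cxcl5 and -0.038 for Cxcl11. With 1 array left out Cxcl1 ran from -0.37 to 0.089, Cxcl3 from -0.072 to 0.46, Cxcl5 from -0.025 to 0.13, Cxcl11 from -0.20 to 0.29 and Cxcl14 from -0.75 to 0.83. The cause was not tested. List counts under all alternatives were added after the data were seen. Without the pair, 1 receptor was lower, and 1 processing gene, 2 interferon genes and 5 genes of the NF-kappaB route were higher. The pair stood apart in these same data and its removal leaves 2 arrays in each group, so the calls made without it are no separate test. With 1 array out, 0 to 1 interferon genes and 1 to 3 genes of the NF-kappaB route were higher. With the replicate block 0 genes of that route were called. Interferon genes called higher numbered 3 over a single row for each gene, 2 over rows with 1 symbol, 1 without dim rows and 1 with array weights, and 1 processing gene was called with rows of 1 symbol, a single row for each gene or array weights. No ligand had another row of its own, so that alternative gave no value, and the 5 ligands under the guide were not tested once dim rows were left out.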
